A study of Mus musculus with 25 samples.

Results

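The genes of the cytoplasmic ribosome's proteins and of the translation factors were followed in the lungs of C57BL/6 mice, an inbred laboratory strain, over the first days of calorie restriction (CR). Members were chosen by name only: probe sets of the Affymetrix MG-U74Av2 array with a single annotated symbol beginning Rpl, Rps, Rplp, Eif or Eef and a digit, without the Rps6k kinases and pseudogenes. They were 114 probe sets of 83 genes, of 10833 probe sets and 8251 genes with a single symbol in all. Ribosomal protein genes made up 48 of the probe sets (34 genes) and factor genes 66 (49 genes). A further 39 probe sets named several genes, one of them a ribosomal protein, and lay outside the choice.

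Per the labels, total lung RNA came from mice whose food was cut by 2/3 and that were killed 2, 4, 12, 24, 48, 72 or 96 h after the cut, with 2 arrays at each time. Control mice gave 4 arrays at 0 h and 2 arrays at each of 2, 4 and 12 h. The labels describe these controls as always fed, yet repeat the phrase for the reduced diet, so how they were fed is not certain; they are called fed here. No genotype other than the strain, and no age, was given. An array's label ends in a number and in letter a or b. The fed 0 h group alone had both number 1 and number 2. The labels do not say if a and b were separate animals or one RNA hybridised again, and p-values may then cover technical spread alone. The study's stated interest was how alveoli, where the lung exchanges gas, are lost under the reduced diet.

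A ribosome joins a small subunit, which reads the mRNA, to a large subunit, which forms the peptide bonds; each holds many different Rps or Rpl proteins, made in matched amounts. Initiation factors (eIFs) bring the mRNA and the first tRNA to the small subunit, and elongation factors (eEFs) move tRNAs and the ribosome along. The mRNAs of ribosomal proteins and of several elongation factors usually begin with a run of pyrimidines, the 5′ terminal oligopyrimidine or TOP sequence, through which the nutrient-sensing kinase mTORC1 controls their translation. Making ribosomes is among the largest costs of a growing cell, which is why these genes are of interest when food is cut.

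The sequences around annotated start sites show which members have a run of pyrimidines near such a site, which need not be a TOP sequence. A match was taken as at least 8 C or T in a row on the gene's strand, in RefSeq sequences of GRCm38.p6. At least 1 of its bases had to lie within 5 bases of an annotated start. A run may thus begin further upstream or after the start, while a TOP sequence begins the mRNA. Of the 34 ribosomal protein genes, 27 were in the sequence table and 10 of those (37.0%) had a run at 1 start or more. The share was 24.4% (10 of 41) for factor genes and 11.4% (3068 of 27025) for all genes of the table. The windows below hold 20 bases before and 10 from the annotated start, 5′ to 3′, with the run in capitals. Rpl7a, Rps24, Rps18 and Rps10 are ribosomal protein genes that were high in the fed 0 h number 1 arrays, as described below, Rps27 is one that was not, and Eef1a1 encodes the factor that delivers tRNAs to the ribosome. Rps19 had the widest difference of all ribosomal protein genes and Eef2 moved the other way; neither had a run at any annotated start in the table.
Rpl7a, chr2:26910787-26910816, plus strand: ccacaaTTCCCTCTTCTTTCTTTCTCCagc
Rps18, chr17:33955656-33955685, minus strand: acttatacgtcacttccgCTCTCTCTTCCa
Rps10, chr17:27635235-27635264, minus strand: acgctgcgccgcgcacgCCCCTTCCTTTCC
Rps24, chr14:24490658-24490687, plus strand: acgcccccgcgctggggTCCTTCCTTgcgc
Rps27, chr3:90213639-90213668, minus strand: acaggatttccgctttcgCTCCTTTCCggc
Eef1a1, chr9:78481715-78481744, minus strand: cgtgtgctggctccgCCCTCTTCCCgaggg
Rps19, chr7:24884572-24884601, plus strand: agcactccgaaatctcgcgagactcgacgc
Eef2, chr10:81176611-81176640, plus strand: cgacctataaaaggccgggcgttgacgtca
The members with a run thus included genes with different behaviour on the arrays. A window without one says only that the letters are not in that window, since the annotated start can lie beside the start used in lung.

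Signals here are linear probe set intensities scaled to a common array median. A filter kept probe sets that reached their array's median on at least 2 arrays. It kept 77 of the 114 members, for 65 genes: 24 ribosomal protein genes and 41 factor genes. The other 37 probe sets were dim, and 18 genes had no probe set past the filter. Those were Rpl32, Rpl35a, Rpl38, Rpl39, Rpl39l, Rps13, Rps14, Rps15, Rps20, Rps27l, Eef1b2, Eef1g, Eef2k, Eif2ak2, Eif2ak4, Eif4enif1, Eif4h and Eif5a. No direction is given for them. The most intense probe set of a gene stands for it. Tests came from a limma fit of the 11 group means, and a call needed an adjusted p (Benjamini-Hochberg, over all 7440 probe sets tested) under 0.05.

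Before the groups are compared, the arrays need a description. Deposited medians lay between 300.2 and 342.3. The highest signal was 74440 to 99040 on 12 arrays, a high signal range (CR 2, 12, 24 and 48 h, fed 12 h and number 1 of fed 0 h), and 31600 to 54310 on the other 12, a low one. The lung markers Sftpc, Sftpb, Scgb1a1 and Ager were at 12360 or more on all 24 arrays. Fed 0 h number 1 stood apart from the rest, so late CR results are also given against number 2 alone.

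The ribosomal protein genes were at their highest, as a set, on the 2 fed 0 h arrays of number 1. A level was taken as the median, over the 24 genes, of each gene's log2 signal relative to its own mean over all arrays. It was 0.85 on array 1a and 0.69 on array 1b of fed 0 h, but -0.19 and -0.09 on arrays 2a and 2b of the same group. All the other arrays lay between -0.34 and 0.32, and the next highest were the CR 2 h arrays at 0.32 and 0.29. The spread between a and b was 0.12 (pooled SD of the level, 12 array pairs). The number 1 arrays thus lay above every other array by more than that spread, whatever the diet.

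**Figure D1:**
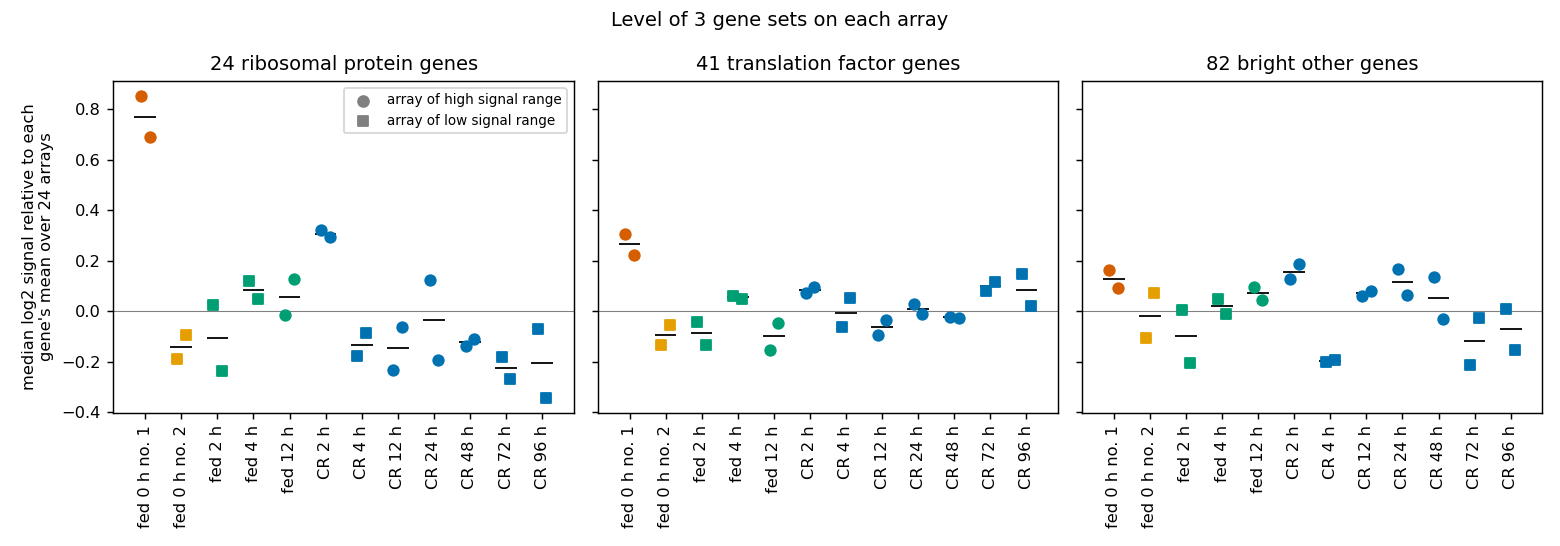
Median log2 signal relative to each gene's own mean (y axis) on each of the 24 arrays, by diet and time (x axis), for the ribosomal protein genes, the translation factor genes and the 82 other genes at least as bright as the median ribosomal protein gene. Each point is 1 array (round, high signal range; square, low range), bars are means of an array pair, and colours mark fed 0 h number 1 (red), fed 0 h number 2 (orange), the later fed groups (green) and CR (blue); the ribosomal protein level of the number 1 pair, 0.69 and 0.85, lies above all other arrays.

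Gene by gene, 21 of the 24 ribosomal protein genes had both number 1 arrays above all other 22 arrays, where 14.6% of all 5706 genes did. The exceptions were Rpl22, Rps27 and Rps29. In the limma fit 19 of the 24 were called higher in number 1 than in number 2 and 0 lower, against 20.2% of all genes higher, 21.2% lower and 41.3% called in either direction. Their median log2 difference was 0.86, while that of all genes was -0.02. Of the probe sets that name several genes, which lay outside the choice, 28 of 34 past the filter were higher and 0 lower, with a median of 0.88. For comparison, of the 82 other genes at least as bright as the median ribosomal protein gene, 30 were higher and 12 lower, with a median of 0.21. Among large subunit genes 9 of 12 were higher (median 0.84), and among small subunit genes 10 of 12 (median 0.89).

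Rps19, a small subunit protein needed to mature the small subunit's RNA, showed the widest gap. Its signal was 38150 and 40970 on the fed 0 h arrays 1a and 1b and 8835 and 8008 on arrays 2a and 2b. It was 15350 to 17480 on the 4 arrays of fed 2 and 4 h, and 7427 and 7827 at fed 12 h. The number 1 arrays did not overlap with any other array, and fed 12 h matched number 2 rather than the earlier fed hours. On CR arrays Rps19 was 12470 to 14660 at 2 and 4 h, 6576 and 7135 at 12 h, and from 5937 to 13220 (median 8176) at 24 to 96 h. Both diets thus had lower Rps19 signal at 12 h than at 2 and 4 h. Number 1 was 4.70-fold above number 2 (95% confidence interval 3.55 to 6.22; limma adjusted p = 5.72e-07).

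Rplp0, the protein at the base of the large subunit's stalk, where elongation factors bind, is often used as a steady reference gene. It read 42100 and 40620 on the number 1 arrays and 17110 and 19880 on the number 2 arrays, a 2.24-fold gap (1.81 to 2.78; limma adjusted p = 8.59e-06). Its later fed arrays lay from 19760 to 24310 (median 22660), CR arrays of 2 to 12 h from 18830 to 27740 (median 20680), and CR arrays of 24 to 96 h from 17150 to 24400 (median 19080). Those ranges overlapped with each other and none reached the number 1 arrays. Rplp1, Rplp2 and Rps6 had no probe set among the members.

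Among the genes with the next widest gaps, Rpl13a, a large subunit protein also known from the control of inflammatory mRNAs, was 1621 and 1639 on the number 1 arrays and 480.8 and 585.1 on the number 2 arrays. It was 3.07-fold higher in number 1 (limma adjusted p = 4.87e-05), and Rps3, at the mRNA entry side of the small subunit, was 3.05-fold higher (adjusted p = 9.75e-06). Rpl10a, Rpl19 and Rps18, structural proteins of their subunits, were 2.97-, 2.91- and 2.88-fold higher. At the other end, Rps4x (X-linked) and Rps28 passed the test with 1.34-fold each.

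Of the 5 genes not called between the numbers, Rpl22 and Rps27 had no peak on the number 1 arrays. Their group means still spanned 0.47 and 0.44 on the log2 scale. Rpl22, an RNA-binding protein of the large subunit with a close paralog, was 904.0 and 918.5 in number 1 and 855.1 and 828.1 in number 2, and 733.1 to 1279 on the CR arrays of 24 to 96 h. Rps27 was 1641 and 1395 in number 1 and 2004 and 1432 in number 2. For both genes the arrays of the numbers overlapped or nearly touched, and neither was called (limma adjusted p = 0.616 and 0.498). The others were Rpl37a (log2 difference 0.33, adjusted p = 0.107), Rps29 (0.16, 0.735) and Rpl41 (0.51, 0.141). Rpl41, the smallest ribosomal protein, was 76140 and 67210 in number 1 and 52250 and 48010 in number 2. It differed among the 11 groups (limma F test, adjusted p = 0.025), with 18230 to 35800 on the fed and CR arrays of 4 h and the fed arrays of 2 h, and 57810 and 57460 at CR 2 h. At that brightness the low signal range, whose highest spot was 31600 to 54310, lies close to what Rpl41 read; what part that range had in the pattern was not tested.

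**Figure D2:**
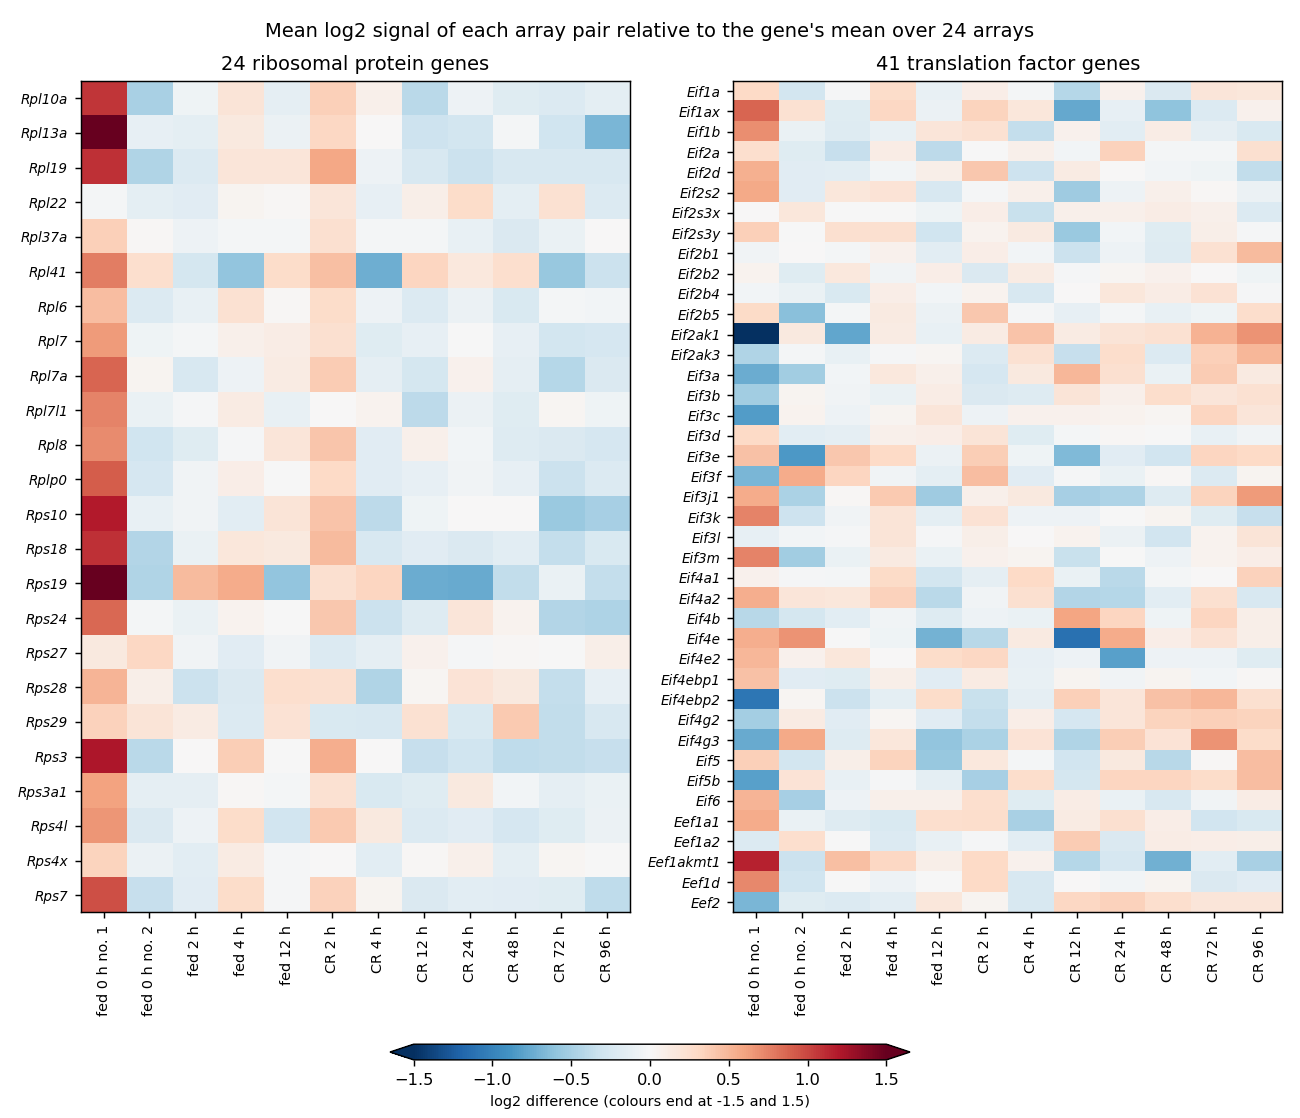
Mean log2 signal of each array pair relative to the gene's own mean over the 24 arrays (colour, red higher and blue lower), for the 24 ribosomal protein genes (left) and the 41 translation factor genes (right); columns are the diet and time groups, with fed 0 h split by number. The fed 0 h number 1 column is the only one in which nearly all ribosomal protein rows are strongly red, while the factor rows of that column hold both colours.

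Translation factor genes were called in both directions. Between the fed 0 h numbers 16 of 41 were higher in number 1 and 9 lower, beside 20.2% and 21.2% of all genes, with a median of 0.35, and their level was 0.31 and 0.22 on the number 1 arrays against -0.15 to 0.15 on all others. Grouped by name, 3 of 4 eEF1 genes, 3 of 3 eIF1 genes and 5 of 10 eIF3 genes were higher. Of the 9 eIF4 genes 1 was higher and 3 lower. That group holds factors that recruit the mRNA and also Eif4ebp1 and Eif4ebp2, which encode repressors of eIF4E. The gene of eEF2, which moves the ribosome forward, was lower. Among the higher ones were Eef1akmt1 (log2 difference 1.48), a methyltransferase that acts on eEF1A, Eef1d (1.02), part of the exchange factor that recharges eEF1A, and Eif6 (2.01-fold), which keeps the subunits apart.

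The eIF3 complex, the large scaffold on the small subunit, was itself divided. Eif3e, Eif3m, Eif3k and Eif3j1 were higher in number 1 by 1.30, 1.28, 1.04 and 1.03 on the log2 scale, and Eif3d also passed. Eif3f, Eif3c and Eif3b were lower, by -1.25, -0.89 and -0.56 (limma adjusted p = 0.0349, 3.41e-05 and 0.0032). The Eif3f call rested on single arrays. Its signal was 104.2 and 270.0 on the number 1 arrays and 497.3 and 318.8 on the number 2 arrays, and array 1b lay within the range of the later arrays. Its difference was -0.56 without array 1a and -0.93 without array 2a, with no call (0.42 and 0.233), and -1.93 without array 1b. Eif3e was no longer called without array 2b (0.97, adjusted p = 0.0524). Eif3c was 2796 and 2658 on the number 1 arrays, 5449 and 4683 on the number 2 arrays, and 4368 to 6528 on all later fed and CR arrays. The number 1 arrays therefore stood alone here too, on the low side. That was so for 5 of 41 factor genes (12.2%), near the 10.6% of all genes. The widest falls toward number 1 were of Eif2ak1, the haem-regulated kinase that shuts down initiation by phosphorylating eIF2 (-1.79), Eif4g3, a scaffold of the cap complex (-1.32), Eif3f, then Eif4ebp2, a repressor of eIF4E (-1.11), and Eif5b, which joins the subunits (-1.03). Without array 1b Eif2ak1 was at -1.06 and Eif5b lost its call (-0.82, adjusted p = 0.0721).

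CR at 2, 4 and 12 h was set against the fed group of the same hour. The mean difference over the 3 hours was called for 0 of 24 ribosomal protein genes and 0 of 41 factor genes, where 0.0351% of all genes were called. The medians were -0.002 and -0.023 on the log2 scale, and that of all genes -0.02. Within the set the mean hid opposite hours. Ribosomal protein levels were 0.32 and 0.29 at CR 2 h against 0.03 and -0.23 at fed 2 h, then -0.18 and -0.09 at CR 4 h against 0.12 and 0.05 at fed 4 h, and -0.23 and -0.06 at CR 12 h against -0.02 and 0.13 at fed 12 h.

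The 2 CR levels lay on one side of the 2 fed levels at each of these hours, above at 2 h and below at 4 and 12 h. With 2 arrays on each side such a separation is common without any difference. At 12 h the nearest levels, -0.06 under CR and -0.02 fed, were closer than the a and b spread of 0.12. A limma F test of whether the hours differed called 0 members and 0 of all genes (0% in the background). CR 2 h arrays were of the high signal range and fed 2 h arrays of the low one, so diet and range cannot be told apart at that hour. At 4 h, inside the low range, 23 of 24 ribosomal protein genes were lower under CR, and 0 were called. Their median was -0.23 beside -0.07 for all genes. The 82 other bright genes moved too, with levels of -0.20 and -0.19 at CR 4 h against 0.05 and -0.01 at fed 4 h. At 2 h they were at 0.13 and 0.19 under CR against 0.01 and -0.20 fed. At 12 h they were at 0.06 and 0.08 under CR against 0.10 and 0.05 fed. What part a shift shared by bright genes had was not tested. For the ribosomal protein genes at 12 h, inside the high range, the median was -0.19 beside -0.02 for all genes, and 17 of 24 were lower. Of the members only Eif4b was called there, higher under CR, where 0.508% of all genes were called. Its signal was 3712 and 3587 at CR 12 h and 2073 and 2175 at fed 12 h. These were its highest values on any array.

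CR at 24 to 96 h, set against all 4 fed 0 h arrays, gave 7 falls and 0 rises among the 24 ribosomal protein genes. In all genes 18.7% were called, 8.57% lower and 10.1% higher. The median log2 difference was -0.45 and that of all genes 0.001. The probe sets that name several genes had 6 falls and 0 rises of 34 (median -0.44). The genes that fell were Rps19 (2.09-fold), Rpl13a (2.02), Rps10 (1.74), Rpl7a (1.56), Rpl41 (1.55), Rps24 (1.49) and Rpl7 (1.37), with limma adjusted p from 0.0116 for Rpl7a to 0.0452 for Rpl7. In none of the 24 genes did all 8 late arrays lie below all 4 fed 0 h arrays, as they did in 2.42% of all genes.

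These falls rested on the number 1 arrays. Set against number 1 alone, 21 of 24 ribosomal protein genes were lower (median -0.89), where 50.9% of all genes were called, 26.8% higher and 24% lower. Set against number 2 alone, 0 were called (median 0.05), where 8.01% of all genes were called and 4.91% were higher. Rpl7a, for example, was 19680 and 18540 in number 1, 10690 and 10720 in number 2, and 7491 to 12640 (median 9286) under CR of 24 to 96 h. Rps10 was 28000 and 29490, then 11660 and 11710, then 7302 to 16610 (median 10380). In both genes the CR range enclosed the number 2 arrays and lay wholly below the number 1 arrays. Of ribosomal protein probe sets 8 fell, and the count was 0 without fed 0 h array 1a or 1b, 21 without array 2a and 16 without 2b. It was 3 without CR 24 h array 1b or CR 96 h array 1b, and 5 without CR 48 h array 1a, CR 72 h array 1a or CR 72 h array 1b.

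**Figure D3:**
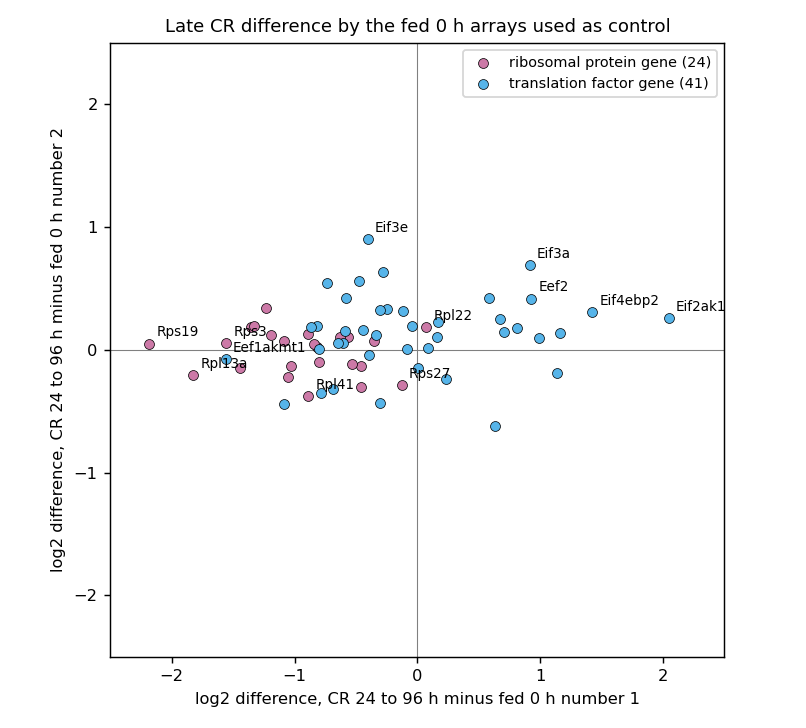
Log2 difference of CR 24 to 96 h from fed 0 h number 1 (x axis) and from fed 0 h number 2 (y axis) for each of the 24 ribosomal protein and 41 translation factor genes; each point is 1 gene. Both axes have the same scale: ribosomal protein genes reach from -2.18 to 0.07 along x and from -0.38 to 0.34 along y.

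The later fed arrays were set against the same fed 0 h arrays. Fed 2, 4 and 12 h against all fed 0 h arrays gave 0 calls among ribosomal protein and factor genes, where 1.79% of all genes were called, with medians of -0.28 and -0.05. Against number 1 alone 21 of 24 ribosomal protein genes were lower (37.2% of all genes called, 18.5% lower), and against number 2 alone Rps19, Rpl10a, Rps18 and Rpl19 were higher (11.3% called, 6.01% higher). The comparisons share their fed 0 h arrays. CR of 24 to 96 h set directly against fed 2 to 12 h, which uses no fed 0 h array as control but differs in hour, gave 0 calls in ribosomal protein genes and 0 in factor genes, where 6.55% of all genes were called. The medians were -0.15 and 0.04, and that of all genes 0.02.

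Inside the low signal range that last comparison (72 and 96 h against fed 2 and 4 h) called 3 ribosomal protein genes lower, Rps24, Rps19 and Rps3, with a median of -0.23, where 13.3% of all genes were called. It also called Eef2, Eif4ebp2, Eif2ak1 and Eif4g2 higher and Eef1akmt1 lower. Inside the high range (24 and 48 h against fed 12 h) it called 0 members, with a ribosomal protein median of -0.08, where 5.84% of all genes were called. A limma F test among the 4 late times called 0 members, against 0.561% of all genes.

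Eef2, the elongation factor that moves the ribosome one codon on, was the member whose late rise held against both fed 0 h numbers. It was 6772 and 7498 on the number 1 arrays, 9558 and 10750 on the number 2 arrays, and 11770 to 15760 (median 13630) under CR of 24 to 96 h. All 8 late arrays lay above all 4 fed 0 h arrays, which was so for 3.21% of all genes. The rise was 1.59-fold (1.34 to 1.90; limma adjusted p = 0.00121). It was 0.93 on the log2 scale against number 1 (adjusted p = 1.34e-06) and 0.42 against number 2 (0.0228).

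Eef2 was not set apart from every fed array. Fed 2 and 4 h read 9493 to 10370, but fed 12 h read 13510 and 12300, inside the late CR range, and CR 12 h read 14620 and 13770. Against the mean of the later fed groups the late difference was 0.31 (SE 0.11; adjusted p = 0.095), and inside the low range the late rise over fed 0 h was 0.36 and no longer called. Eef2 differed among the 11 groups (F test, adjusted p = 0.034).

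In all, 8 of 41 factor genes rose and 4 fell at 24 to 96 h against all fed 0 h arrays, beside 10.1% and 8.57% of all genes, with a median of 0.01. Beside Eef2 and Eif2ak1 (2.22-fold), the risers belonged to the eIF4 group and to eIF3: Eif4ebp2, Eif4b, which aids the helicase eIF4A, and Eif4g2, a scaffold for cap-independent initiation, and Eif3a, Eif3c and Eif3b. Of these only Eef2 was called against number 2 alone. There Eif2ak1 was at 0.26, Eif4g2 at 0.18, Eif3c at 0.097 and Eif3b at 0.15 on the log2 scale, with adjusted p of 0.452 or more, and Eif3a was at 0.69 (0.0589). Eif2ak1 also fell from 1.15 to 0.61, with no call, without fed 0 h array 1b alone. Eif3a was 247.6 and 431.5 in number 1, 360.0 and 408.1 in number 2, and 479.0 to 789.8 under late CR, with all late arrays above all fed 0 h arrays. It rose 1.74-fold (1.35 to 2.24; limma adjusted p = 0.00536). Its later fed arrays, at 467.4 to 692.6, overlapped with the CR arrays. The other risers overlapped with at least 1 fed 0 h array. Of factor probe sets 13 were called, and the count was 6 or 5 without fed 0 h array 1a or 1b.

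Eif4b was 1769 and 1852 in number 1, 2431 and 1689 in number 2, and 2259 to 3371 (median 2761) under late CR. It rose 1.42-fold (1.20 to 1.68; limma adjusted p = 0.00693), by 0.59 on the log2 scale against number 1 and by 0.42 against number 2, the latter without a call (0.0598). Eif4ebp2 was 1901 and 1962 in number 1, 3845 and 4540 in number 2, and 3828 to 6282 under late CR, a 1.82-fold rise (adjusted p = 0.0127) that was 1.42 on the log2 scale against number 1 and 0.31, without a call, against number 2. Its paralog Eif4ebp1, the better known mTORC1 target, had a log2 difference of -0.14 (adjusted p = 0.532). Eif4e, the cap-binding protein they restrain, read 22.05 to 351.7, with 2 arrays under the floor of 80.37, and was not called (-0.37, adjusted p = 0.352).

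The 4 factor genes that fell were Eef1akmt1 (1.77-fold), Eif1ax (1.70), an X-linked factor of start codon scanning, Eif4e2 (1.49), a cap-binding relative that can block translation, and Eif4a2 (1.42), an RNA helicase of the cap complex. Eif4a2 was 11030 and 11800 in number 1, 8877 and 8797 in number 2, and 5200 to 9290 (median 6995) under late CR. It had the smallest p of all members in the F test over the 11 groups (adjusted p = 0.011). It was also low at 12 h in both diets, at 6280 and 5541 fed and 6470 and 5137 under CR, beside 8856 to 10020 at 4 h. Both 12 h groups were of the high signal range and both 4 h groups of the low one, so hour and range cannot be told apart there. In late CR Eif4a2 was 5200 to 7269 at 24 and 48 h, of the high range, and 5689 to 9290 at 72 and 96 h, of the low one. What part the range had was not tested. Eif4a1, a paralog of Eif4a2, had a difference of -0.04. Against number 2 alone none of the 4 was called: Eef1akmt1 was at -0.079, Eif1ax at -0.44, Eif4e2 at -0.35 and Eif4a2 at -0.32 on the log2 scale (limma adjusted p = 0.882, 0.136, 0.372 and 0.129). That F test called 2 of 24 ribosomal protein genes (Rpl41 and Rps28) and 4 of 41 factor genes (Eif4a2, Eif1ax, Eif4b and Eef2), where 9.46% of all genes were called.

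Set against number 1 alone, 11 factor genes were higher and 14 lower at 24 to 96 h. Set against number 2 alone, 4 were higher and 0 lower: Eif3e, Eif2b5, Eif3m and Eef2. Eif2b5 belongs to eIF2B, the exchange factor that recharges eIF2 and is held back in the integrated stress response. Eif3e and Eif3m were low in number 2, and the fed 2, 4 and 12 h arrays were above number 2 for both genes as well (limma adjusted p = 0.0113 and 0.026). The background shares are those given for the ribosomal proteins.

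**Figure D4:**
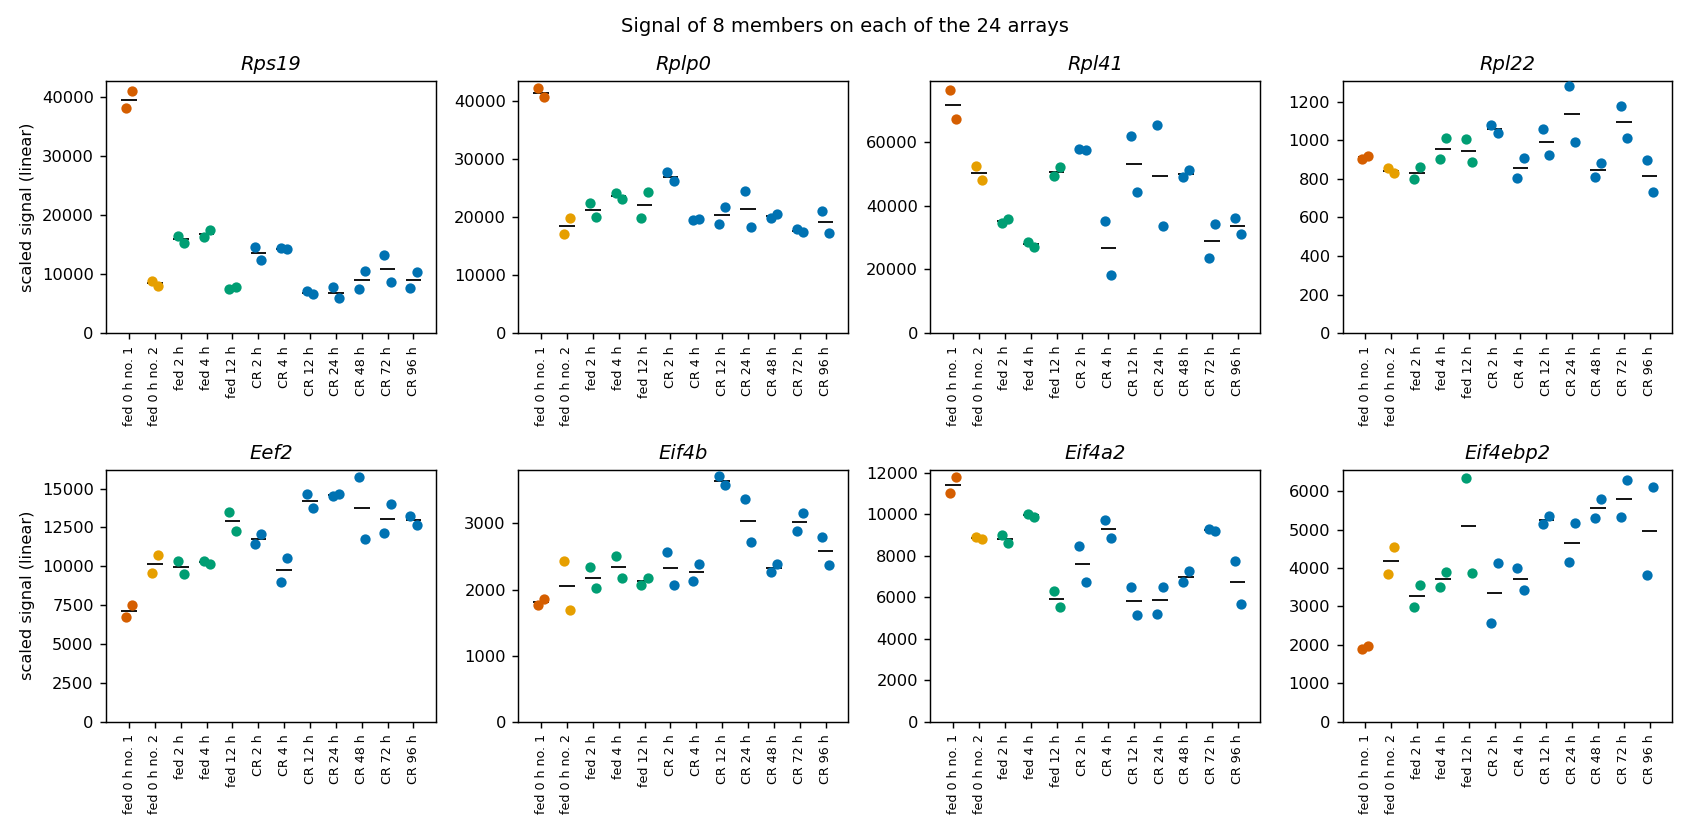
Scaled linear signal (y axis, from 0) of 8 members on each of the 24 arrays (x axis, diet and time, fed 0 h split by number); points are arrays, bars are means of an array pair, colours as in the plot of levels. Rps19 and Rplp0 are high on the number 1 pair only, and Rpl22 has no peak there. Eef2 and Eif4ebp2 are lowest on the number 1 pair, and Eif4a2 is low in both 12 h groups, which are of the high signal range.

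No gene measured for eIF2, which carries the first tRNA, was called in the late comparison. Its subunit genes here were Eif2s2, Eif2s3x and Eif2s3y, while Eif2s1 had no probe set among the members. With Eif2a and Eif2d, which share the name but encode separate factors, 0 of 5 passed, with a median of -0.22. None of the 4 eIF2B genes passed either (median 0.16). Eif2s3y, on the Y chromosome, read 305.2 to 687.4 over the 24 arrays. Eif2ak3, the kinase of the endoplasmic reticulum stress branch, had a late difference of 0.46 (adjusted p = 0.105), and Eef1a1, at 23380 to 59920 over the 24 arrays, had -0.28 (adjusted p = 0.21).

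Several genes had probe sets that disagreed, and their values depend on the one used. The most intense Eif4ebp2 probe set rose by 0.87, while another past the filter had -0.55 without a call (adjusted p = 0.187). Rpl19 had 1.54 and, on a second probe set, -0.80 between the fed 0 h numbers, the second without a call. That second set had a mean signal of 192.1, with 3 arrays at the floor, beside 17400 for the one used. For Rps28 a second probe set was called lower in late CR (-0.41, adjusted p = 0.0429) while the one used was not (-0.33, 0.0694) and another had 0.56 without a call. The Rps28 set with 0.56 had a mean signal of 179.8, with 3 arrays at the floor, beside 41310 for the one used. Eif1ax and Eif4e2 had 2 probe sets of the same sign of which 1 was called.

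Other genes of the translation pathway were read from lists made up from textbook roles. Of 54 mitochondrial ribosomal protein genes, which serve the separate ribosome inside mitochondria, 33 were higher and 1 lower in number 1 than in number 2, with a median of 0.86, beside 20.2% and 21.2% of all genes. In late CR 19 of 54 fell against all fed 0 h arrays and 0 rose (median -0.50), beside 8.57% and 10.1% of all genes. Only Mrpl52 was called, lower, against number 2 alone (median -0.065), and 0 were called against the later fed arrays (median -0.16). The ribosome biogenesis list of 35 genes had 11 higher and 5 lower between the numbers. In late CR it had 1 rise and 4 falls, a share called (14.3%) under that of all genes (18.7%), and 0 calls against number 2 alone. Its rise was of Ncl, nucleolin, and its falls included Nhp2, Emg1 and Nip7, all of which act in the nucleolus. Of 19 aminoacyl-tRNA synthetase genes, which load tRNAs, 2 rose (Nars and Qars) and 1 fell (Cars), 15.8% called, and only Cars was called against number 2 alone. Cars was also lower on the later fed arrays than on fed 0 h, 2.72-fold (limma adjusted p = 0.00626). Late CR against those later fed arrays gave 0.44 on the log2 scale for Cars, without a call (adjusted p = 0.245). Of 18 genes of other translation machinery 1 rose and 0 fell in late CR against fed 0 h.

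The next lists hold regulators of translation. Of 25 genes of mTORC1 and growth signalling, 6 rose and 2 fell in late CR against fed 0 h (median 0.24), 32% called beside 18.7% of all genes. Against number 2 alone 4 rose and 0 fell (8.01% of all genes called), and against the later fed arrays 3 rose and 0 fell, 12% beside 6.55% of all genes. Ddit4, an mTORC1 inhibitor induced by stress and glucocorticoids, rose 3.82-fold and 4.03-fold in these comparisons (limma adjusted p = 3.28e-09 and 6.28e-10). Mknk2, a kinase of eIF4E, rose 2.62- and 1.77-fold, and Sesn1, a sestrin that restrains mTORC1, rose 1.57- and 1.44-fold. Of 20 genes of the integrated stress response, 4 rose and 1 fell against fed 0 h (25% beside 18.7%), 3 rose and 1 fell against number 2 alone, and 4 rose against the later fed arrays (20% beside 6.55%). Cebpb, a transcription factor, rose 2.00- and 1.75-fold against fed 0 h and against the later fed arrays. Ddit4, Mknk2, Sesn1 and Cebpb were also called higher against number 2 alone, at 4.17-, 2.12-, 1.96- and 1.68-fold.

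Markers of other cell types moved with the fed 0 h numbers as well. In whole lung, fewer cells of a type and less RNA per cell cannot be told apart. The summed signal of 8 B cell markers was 13770 and 13850 in number 1, 4815 to 7672 in number 2, 10090 to 12850 on the later fed arrays and 3434 to 6706 in late CR. Macrophage markers summed to 29500 to 30420 in number 1, 11670 to 15260 in number 2 and 11890 to 38460 in late CR. Sums for T and NK cells (2538 to 2673 and 1209 to 1568), neutrophils (4433 to 5169 and 2058 to 2250) and erythroid cells (75680 to 81140 and 37360 to 39780) were likewise higher in number 1, and the 10 endothelial markers were lower (41670 to 43490 and 60980 to 71920). Alveolar type II sums were also higher in number 1 (146800 to 150200 and 89350 to 111800), and the later fed arrays spanned 87340 to 162400. These are sums of very bright signals, and number 2 was of the low signal range, whose highest spot was 31600 to 54310. What part that range had in the alveolar type II sums was not tested. Smooth muscle sums were lower in number 1 than in number 2 (12230 to 13180 and 15500 to 18150), but both lay above the 8605 to 11010 of the later fed arrays. Endothelial sums on the later fed arrays were 54310 to 73740, above those of number 1. Sums of alveolar type I, airway and heart muscle markers overlapped between the numbers. By gene, 4 of 8 B cell, 3 of 5 T and NK cell and 3 of 8 macrophage markers were higher in number 1. So were 2 of 5 neutrophil and 2 of 3 erythroid markers, and 7 of 10 endothelial markers were lower. Among all genes 20.2% were higher and 21.2% lower. On the later fed arrays the highest sums were 12850 for B cells, 36780 for macrophages and 78880 for erythroid cells. They were 2516 for T and NK cells and 4120 for neutrophils. The ratio of 3′ to 5′ signal of the Gapdh control, a measure of RNA integrity, was 1.85 and 1.76 in number 1 and 2.02 and 1.79 in number 2. It was 1.01 to 1.66 on the later fed arrays and 1.21 to 2.15 in late CR, highest at CR 48 h (1.95 and 2.15). For the actin control it was 1.24 to 3.81 over the 24 arrays, highest on CR 48 h array 1a. What part cell content or RNA handling had in the ribosomal protein levels or in the late CR differences was not tested.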

How the data were processed

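Intensities as the authors deposited them were linear and already scaled; their software was not given in the sources used here. An array of another platform with conflicting labels was put in no group and not used. Arrays were brought to one median (that of their 24 medians), a floor was set at the 25th percentile of all values (80.37), and log2 was taken. There were 12422 probe sets beside the controls: 10833 with 1 annotated symbol, 396 with several and 1193 with none. The filter left 7440. All 24 arrays entered one limma fit (3.58.1, R 4.3.3; trended eBayes; 13 residual degrees of freedom), with two-sided tests. The 24 arrays limit the precision of every value, and the fit was tested on simulated data. The fed 0 h numbers were compared in a fit with 12 groups.

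The members and lists were chosen with earlier results of these data known. Named were the 6 largest called rises and falls of each class per comparison, the 6 smallest p of each F test, listed initiation and elongation factors and stalk proteins, genes whose probe sets disagreed, and up to 4 genes per pathway list; Rpl22, Rps27, Rps29, Rpl37a, Rps4x, Rpl19's second probe set and the genes of the sequence windows were named after their values were seen. Gene names and the 30-base windows come from RefSeq (GRCm38.p6); 27 of 34 ribosomal protein genes and 41 of 49 factor genes were in the sequence table. Alternatives covered scaling, floor, filter, trend, array weights, the groups fitted, letters as a block or averaged, the control number, the signal range, the probe set per gene and each array left out. Leaving out both arrays of a number and fits within a signal range were added after seeing the data. Coordinates are for GRCm38.p6, and the array files carry none.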

Additional observations from a re-analysis of the deposited data

How the results depend on the processing

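Counts below are of probe sets called, for ribosomal protein and factor probe sets in that order, and medians are log2 differences over genes; the cause of each shift was not tested unless the alternative itself shows it. The late CR result (8 and 13 called; medians -0.45 and 0.01) became 23 and 27 with fed 0 h number 1 as control or both number 2 arrays left out (medians -0.89 and -0.25), and 0 and 4 with number 2 as control or both number 1 arrays left out (0.047 and 0.16). It was 21 and 26 within the high signal range (-0.86 and -0.28) and 1 and 8 within the low range (0.032 and 0.17). Rps19 then turned to 0.05 against number 2, 0.05 without both number 1 arrays and 0.22 within the low range, and Eef1akmt1 to 0.002 within the low range. Ribosomal protein calls were 4 with quantile normalization, 1 with no filter, 5 with no intensity trend and 21 with the signal range as a block. Both counts fell to 0 and 3 with only the groups compared and to 0 and 0 with a and b averaged, settings with fewer arrays. Leaving out 1 array gave 0 to 21 and 5 to 19 calls, with medians of -0.63 to -0.27 and -0.052 to 0.12.

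Fed 2 to 12 h against fed 0 h (0 and 0 called; -0.28 and -0.05) became 23 and 22 with number 1 as control or without both number 2 arrays (-0.81 and -0.25), and 4 and 5 with number 2 as control (0.11 and 0.063), or 4 and 3 without both number 1 arrays (0.11 and 0.063). It was 18 and 19 within the high range (-0.81 and -0.31), 4 and 5 within the low range (0.10 and 0.072), and 3 and 2 with the range block (-0.14 and 0.018). The ribosomal protein median was -0.10 with quantile normalization, and 1 factor probe set was called with the deposited scaling and with a filter at 12 arrays. Single arrays left out gave 0 to 5 and 0 to 2 calls and medians of -0.51 to -0.12 and -0.093 to 0.026. Late CR against fed 2 to 12 h (0 and 0) became 1 and 7 with array weights, 2 and 7 with only the groups compared, 14 and 16 with the range block (-0.29 and -0.028), 4 and 9 without both number 1 arrays, 4 and 8 without both number 2 arrays, and 3 and 5 within the low range; factor calls reached 0 to 3 with 1 array left out. The range block takes its size from the fed 0 h numbers alone.

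The early mean (0 and 0 called) became 7 and 4 with the range block (-0.29 and -0.12). Its medians were -0.19 for ribosomal proteins within the high range, where 1 factor was called, and -0.23 and -0.12 within the low range. Between the fed 0 h numbers the medians of 0.86 and 0.35 were 0.48 and 0.14 with quantile normalization, and that of factors 0.29 with no filter and 0.30 with another choice of probe sets; 1 array left out gave factor medians of 0.28 to 0.35 and 17 to 29 calls. The F test over the 11 groups (3 and 5 called) gave 0 with quantile normalization and 1 with no intensity trend for ribosomal proteins, 0 and 2 with no filter, 9 and 13 with array weights, 17 and 25 with the range block, 12 and 14 without both number 1 arrays, 20 and 24 without both number 2 arrays, and 0 to 5 and 1 to 8 with 1 array left out. The F test of early hours gave 1 and 1 with the range block and 1 ribosomal protein with only the groups compared. That of late times gave 12 and 15 with the range block, 3 factors with array weights, 1 and 2 without both number 1 arrays, 1 and 3 without both number 2 arrays, and 0 to 1 factors with 1 array left out.

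The letters did not pair the arrays: over 66 pairs of groups the a minus b differences correlated at -0.19 to 0.12 (median 0.01). With the letter as a replicate block the F test over the 11 groups called 1 ribosomal protein probe set, and the block moved no other of the counts and medians above beyond 1.5 times or the spread. The range block could not be fitted for the fed 0 h numbers, and averaged letters were not run for them or for the F tests. Most groups had 2 arrays, which limits every comparison. Between the fed 0 h numbers, signal range and cell markers changed together, so their parts in that ribosomal protein difference cannot be told apart. Outside fed 0 h the arrays of the high range had ribosomal protein levels of -0.23 to 0.32. The later fed arrays had B cell sums of 10090 to 12850, beside 13770 and 13850 in number 1, and ribosomal protein levels of -0.23 to 0.13. What part range or cell content had over all arrays was not tested.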
